A study of Mus musculus with 2 samples.

Results

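Kinesins, centromere proteins, condensin subunits and the kinases and checkpoint proteins of mitosis were compared between cultured mouse macrophages and osteoclasts. The members were the genes whose symbols begin with Kif and a digit, Cenp, Ncap or Aurk, together with Bub1, Bub1b, Bub3, Mad2l1, Ttk, Plk1, Birc5, Incenp and Cdca8. This gave 76 of the 18193 genes that have a probe set of their own on the array. Each gene was read from 1 probe set, its brightest by the log2 mean of the 2 arrays, and the difference played no part in the choice. The name rule joins unlike genes: 49 members were grouped as acting on chromosomes or the spindle in mitosis and 26 as kinesins of transport and other tasks. Cenpj, a centriole protein, matched by name alone. These groups are not exclusive by function: Kif2a and Kif2b count among the 26 and their relative Kif2c among the 49.

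The study holds 2 Affymetrix arrays, 1 of macrophages and 1 of osteoclasts, both from bone marrow of 8 week old mice of the strain given as C57/Black6. The marrow cells first spent 3 days in M-CSF, the growth factor of the macrophage lineage, and the adherent cells served as progenitors for both cultures. Macrophages were then kept in M-CSF alone and osteoclasts were raised in M-CSF with RANKL, the cytokine that drives osteoclast formation, with 6 days given for both. Neither group has a replicate, so no difference below has a test or a p-value. The labels do not say whether both cultures came from the same animals, and sex-linked genes, given below, differed between the arrays.

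Kinesins are motors that walk along microtubules or take them apart. In mitosis they build the spindle, align chromosomes and divide the cell, while others carry organelles and vesicles in cells that do not divide. Centromere proteins mark the site on each chromosome where microtubules attach, condensin compacts the chromosomes, and the spindle checkpoint holds the cell before anaphase until every attachment is made. Osteoclasts form when precursors that have left the cell cycle fuse into large multinucleated cells, whereas macrophages in M-CSF can go on dividing.

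Many mitotic genes carry a cell cycle genes homology region (CHR) close to the transcription start, bound by complexes that hold the genes down in resting cells and turn them on before mitosis, and a CCAAT box, bound by NF-Y. Both were searched in RefSeq promoter windows of 300 bases, from 250 before to 50 after the start (GRCm38.p6). The CHR element was taken as TTTGAA or TTCGAA and the box as CCAAT, each on both strands. A match describes the letters and shows neither binding nor a cause. The promoters below run from 120 bases before to 50 after the start, 5′ to 3′, with every match in capitals (ATTGG is CCAAT on the other strand). The first 6 belong to members whose osteoclast difference lay above the general shift described below and that hold a CHR element near the start. Birc5 was also above the shift and has no match, Cenph was below it with a CCAAT box only, and Kif3c, the member with the lowest difference, has neither. The printed promoters are a selection. Of 23 members with an element near the start and measured in both arrays, 4 lay below the shift, Ncapg2, Kif22, Cenpn and Kif4, and none of these is printed.
Cenpa (chr5:30666766-30666935, plus strand): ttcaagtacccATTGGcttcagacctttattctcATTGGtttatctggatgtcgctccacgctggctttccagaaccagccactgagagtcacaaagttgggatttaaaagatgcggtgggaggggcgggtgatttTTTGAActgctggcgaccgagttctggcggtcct
Cenpf (chr1:189688037-189688206, minus strand): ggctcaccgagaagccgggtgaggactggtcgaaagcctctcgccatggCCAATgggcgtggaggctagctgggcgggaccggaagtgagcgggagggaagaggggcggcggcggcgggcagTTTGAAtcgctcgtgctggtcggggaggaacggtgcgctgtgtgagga
Kif20b (chr19:34922238-34922407, plus strand): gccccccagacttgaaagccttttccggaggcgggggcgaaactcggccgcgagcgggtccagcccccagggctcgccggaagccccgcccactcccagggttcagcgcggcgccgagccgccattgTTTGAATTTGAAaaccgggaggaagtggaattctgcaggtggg
Bub1b (chr2:118598091-118598260, plus strand): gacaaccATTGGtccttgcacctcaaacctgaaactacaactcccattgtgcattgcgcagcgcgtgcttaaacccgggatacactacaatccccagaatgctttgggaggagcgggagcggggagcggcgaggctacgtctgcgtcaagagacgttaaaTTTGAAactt
Aurka (chr2:172370521-172370690, minus strand): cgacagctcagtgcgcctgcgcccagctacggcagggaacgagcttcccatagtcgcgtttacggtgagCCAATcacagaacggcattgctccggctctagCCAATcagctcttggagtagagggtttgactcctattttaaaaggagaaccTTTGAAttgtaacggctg
Plk1 (chr7:122159315-122159484, plus strand): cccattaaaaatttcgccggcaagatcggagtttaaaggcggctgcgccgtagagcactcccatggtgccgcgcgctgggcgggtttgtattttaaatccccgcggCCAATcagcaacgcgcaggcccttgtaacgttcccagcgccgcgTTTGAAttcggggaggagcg
Birc5 (chr11:117849117-117849286, plus strand): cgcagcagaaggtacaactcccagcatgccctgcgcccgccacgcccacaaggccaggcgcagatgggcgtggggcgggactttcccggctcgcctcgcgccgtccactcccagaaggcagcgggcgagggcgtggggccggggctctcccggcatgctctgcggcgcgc
Cenph (chr13:100775850-100776019, minus strand): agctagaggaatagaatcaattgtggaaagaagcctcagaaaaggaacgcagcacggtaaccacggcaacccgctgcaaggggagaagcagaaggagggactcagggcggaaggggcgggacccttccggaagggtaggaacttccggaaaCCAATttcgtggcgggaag
Kif3c (chr12:3365012-3365181, plus strand): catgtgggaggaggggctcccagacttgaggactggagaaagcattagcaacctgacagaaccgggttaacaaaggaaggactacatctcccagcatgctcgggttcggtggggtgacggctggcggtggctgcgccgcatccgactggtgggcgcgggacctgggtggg

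A CHR element was found in 31 of the 68 members with a promoter entry (45.6%), against 21.7% of the 27025 genes of the promoter table. It lay within 50 bases of the start in 24 members (35.3%), against 6.12% of all genes. The element was present in 9 of 10 mitotic kinesins, 5 of 6 checkpoint genes and 5 of 6 condensin genes. It was present in 6 of 20 centromere genes (30.0%) and in 4 of 21 kinesins of transport and other tasks (19.0%), against the 21.7% of all genes. Within 50 bases of the start it lay in 4 of the 20 (20.0%) and 3 of the 21 (14.3%), against 6.12%. A CCAAT box was found in 38 members (55.9%), against 41.1% of all genes, and both elements in 24 (35.3%), against 8.61%. Kif20b holds 2 CHR elements back to back, at 8 and 14 bases after the start. Aurkb, Incenp, Kif13b, Kif20a, Kif21b, Kif28, Kif5a and Kif5b had no entry in the promoter table.

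The deposited values are linear intensities, called signals here. Signals of the osteoclast array were lower at the median: over the 23708 probe sets measured in both arrays the median log2 difference, osteoclast minus macrophage, was -0.43 (1.35-fold lower). All differences that follow are on the log2 scale relative to this shift, and the difference of the deposited signals is 0.43 lower unless a bound applies. A signal counted as measured above a floor, the 40th percentile of each array (17.0 in macrophages, 14.4 in osteoclasts), and a signal below it was raised to it. The spread to set a difference against is the SD between probe sets of the same gene, 0.49 over 5435 genes and 0.50 over the 37 members that allow it, which holds no variation between cultures or animals. Since these are bulk cultures, fewer cells of a type and less RNA per cell cannot be told apart.

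The arrays carried the markers of their labels. All 10 osteoclast markers were at least 2-fold higher in the osteoclast array, with a summed signal of 1013 in macrophages and 36790 in osteoclasts. The 10 macrophage markers were measured in both arrays and 4 were at least 2-fold lower in osteoclasts (47449 and 24407). Of 11 measured granulocyte and progenitor markers 9 were at least 2-fold higher in osteoclasts (3454 and 6398), and 5 were so as deposited. Among the 9 were Mpo (36.2 and 89.3) and Prtn3 (22.2 and 63.5), while Fcnb went the other way (57.0 and 6.09). Of the stromal markers 7 of 8 were measured (12655 and 7264) and lay on both sides of the shift, with Col1a2 at 5744 and 2895 (-0.56) and Col3a1 at 767 and 1255 (1.14). All 6 megakaryocyte markers were measured (8755 and 1930), a sum set mainly by Pf4 (8488 and 1609), with Vwf the other way (13.9 and 95.5). Of the erythroid markers 3 of 5 were measured (138 and 71.6), of the B cell 2 of 5 (121 and 50.8) and of the T and NK cell 2 of 6 (98.5 and 91.9). Xist, the RNA of the inactive X chromosome, read 1872 in macrophages and 22.1 in osteoclasts. The Y-linked Eif2s3y read 0.571 and 321, Uty 14.7 and 72.7, and Kdm5d 6.14 and 63.5. The macrophage RNA thus read as female and the osteoclast RNA as male. With 1 array per group, cell type and sex of the animals cannot be told apart. The part of these other cells and of the sex-linked difference in the member values was not tested.

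Of the 76 members, 66 exceeded the floor in both arrays, 4 in macrophages only (Aurkc, Kif9, Kif12 and Kif15), none in osteoclasts only, and 6 in neither (Kif2b, Kif5a, Kif14, Kif26a, Kif27 and Kif28). Most differences were small. Relative to the shift, 3 of the 70 measured members were at least 2-fold higher in osteoclasts (4.29%, against 7.11% of all 13647 measured genes) and 1 was at least 2-fold lower (1.43%, against 6.99%). As deposited, 0 were 2-fold higher (against 3.0% of all genes) and 8 were 2-fold lower (11.4%, against 17.5%). Large differences were thus no more frequent among members than among all genes on either scale. Of the 66 members measured in both arrays 39 lay above the shift (59.1%, against 48.8% of all genes), with a median of 0.08 against -0.02 for all genes, whose quartiles were -0.40 and 0.37. This excess rests on the probe set read. By that probe set, 39 of all 70 measured members lay above the shift and 29 below, with Kif12 and Kif15 at 0 and a median of 0.05. With the mean of all measured probe sets of a gene, 35 of the 70 lay above and 35 below, with a median of 0.0053. Among those above were then Kif12 (0.08) and Kif15 (0.11), measured in macrophages only, whose osteoclast signal was raised to the floor. By the spread between probe sets, 15 members were higher by at least 1 SD (22.7%, against 19.2% of all genes), 8 were lower by as much (12.1%, against 20.5%), and 43 lay within it.

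**Figure D1:**
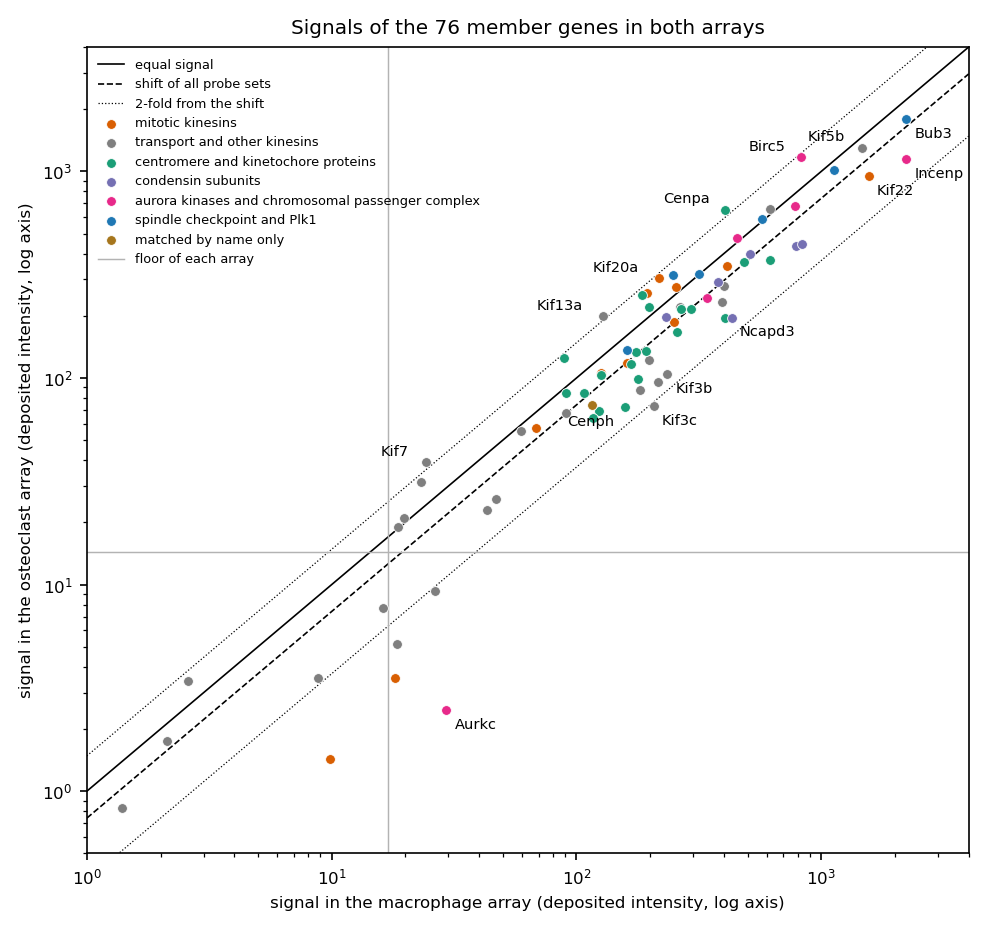
Signal of each of the 76 members in the macrophage array (x axis) and the osteoclast array (y axis), both as deposited intensities on log axes, coloured by role. Most points lie between the dotted lines that mark 2-fold from the shift (dashed), 3 measured members lie on or above the upper one and 6 lie under the lower one, of which Kif3c is the only one above both floors.

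The genes at least 2-fold higher in osteoclasts have different roles. Cenpa, the histone variant that defines the centromere, read 405 in the macrophage and 653 in the osteoclast array (difference 1.12). Kif13a, a motor of endosomal recycling, gave 129 and 199 (1.06). Kif7, a kinesin of Hedgehog signalling at the cilium, gave 24.4 and 39.3 (1.12). Each was higher in osteoclasts already as deposited, by 0.69 for Cenpa and Kif7 and by 0.63 for Kif13a. Kif7 was dim: its macrophage signal was under 28.2, the level under which 95% of probe sets of odorant and pheromone receptors lay, genes these cells are not known to use. Cenpa and Kif7 have 1 probe set measured in both arrays, and a dim second one of Cenpa read 8.44 and 31.6. The 5 probe sets of Kif13a ranged from -0.76 to 1.82, so its value depends on the probe set read. Kif3c, a motor subunit that pairs with Kif3a, gave 207 and 72.8 (-1.07), the lowest difference of any member measured in both arrays.

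The spindle checkpoint genes and Plk1 all lay above the shift by the probe set read, 6 of 6 (against 48.8% of all genes), with a median of 0.36. With the mean of all measured probe sets it was 4 of 6, with a median of 0.17. Bub1b, the checkpoint kinase-like protein BubR1 that blocks the anaphase promoting complex, gave 249 in macrophages and 314 in osteoclasts (0.77). Its other 2 probe sets gave 0.71 and 0.72, so its probe sets differed by far less than the spread. Bub1, a kinase of the kinetochore, gave 573 and 587 (0.47). Plk1, a kinase of mitotic entry, spindle assembly and cytokinesis, gave 317 in both arrays (0.43). Mad2l1, the checkpoint protein that inhibits Cdc20, gave 1129 and 1021 (0.29). Ttk, the kinase at the top of the checkpoint, gave 160 and 137 (0.20), and Bub3, the partner of Bub1 and Bub1b, 2218 and 1786 (0.12). Only Bub1b differed by more than 1 SD between probe sets, and every further probe set of Bub1, Ttk and Bub3 measured in both arrays lay below the shift, at -0.48, at -0.25 and from -0.29 to -0.01. As deposited, Bub1b and Bub1 were higher in osteoclasts, Plk1, Mad2l1, Ttk and Bub3 were equal or lower, and the group median was -0.073.

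Among the mitotic kinesins, 7 of the 9 measured in both arrays lay above the shift (77.8%, against 48.8% of all genes). The median was 0.17 over the 10 measured in at least 1 array, and -0.26 as deposited. The 2 highest by the probe set read, Kif20a and Kif20b, are motors of cytokinesis. Kif20a, which brings the chromosomal passenger complex to the central spindle, gave 217 in macrophages and 305 in osteoclasts (0.92), and its relative Kif20b gave 194 and 257 (0.84, second probe set 0.07). Kif23, the motor of the centralspindlin complex, gave 410 and 348 (0.20). These are the 3 motors of the kinesin-6 family on the array. All 3 lay above the shift (against 48.8% of all genes), 2 of them also as deposited. Kif2c, which takes microtubules apart at the centromere, gave 255 and 276 (0.54), with probe sets from -0.07 to 0.59.

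The remaining mitotic kinesins differed little. Kif18a, which damps chromosome movement at the metaphase plate, gave 68.6 and 57.0 (0.16), and Kif18b, which acts on astral microtubules, 126 and 105 (0.17). Kif11, the motor that pushes spindle poles apart, gave 249 and 186 (0.01), with other probe sets at -0.70 and -0.10. Kif4, an X-linked motor on chromosome arms, gave 161 and 119, which lay at the shift itself. Kif22, a second chromosome arm motor, gave 1561 and 951 (-0.28), whereas its other 2 probe sets gave 0.84 and 0.63, so its direction depends on the probe set. Kif15, which backs up Kif11, was dim, with 18.1 in macrophages and 3.52 in osteoclasts. Kif14, a motor of the midbody, was below the floor in both arrays (9.80 and 1.43).

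The chromosomal passenger complex, which corrects wrong attachments and then moves to the central spindle, was not uniform. Birc5, the survivin subunit, gave 824 in macrophages and 1175 in osteoclasts (0.95), from its single measured probe set. Cdca8, the borealin subunit, gave 780 and 676 (0.23), with other probe sets at 0.42 and 0.45. Incenp, the scaffold, gave 2228 and 1148 (-0.52), with 3 other measured probe sets from -0.75 to 0.51. The 2 brighter probe sets of Incenp lay below the shift and the 2 dimmer ones above it. Aurkb, the kinase of the complex, gave 342 and 244 (-0.06), with a second probe set at 0.39. Aurka, the kinase of the spindle poles, gave 451 and 475 (0.51). Aurkc, known from germ cells, gave 29.4 and 2.46, and its difference of -0.59 is a bound set by the floor. The median of the 6 genes was 0.09 relative to the shift and -0.35 as deposited, and it was 0.27 with the mean of all measured probe sets. Without probe sets that can match several genes, which drops Aurkb, the median was 0.45.

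**Figure D2:**
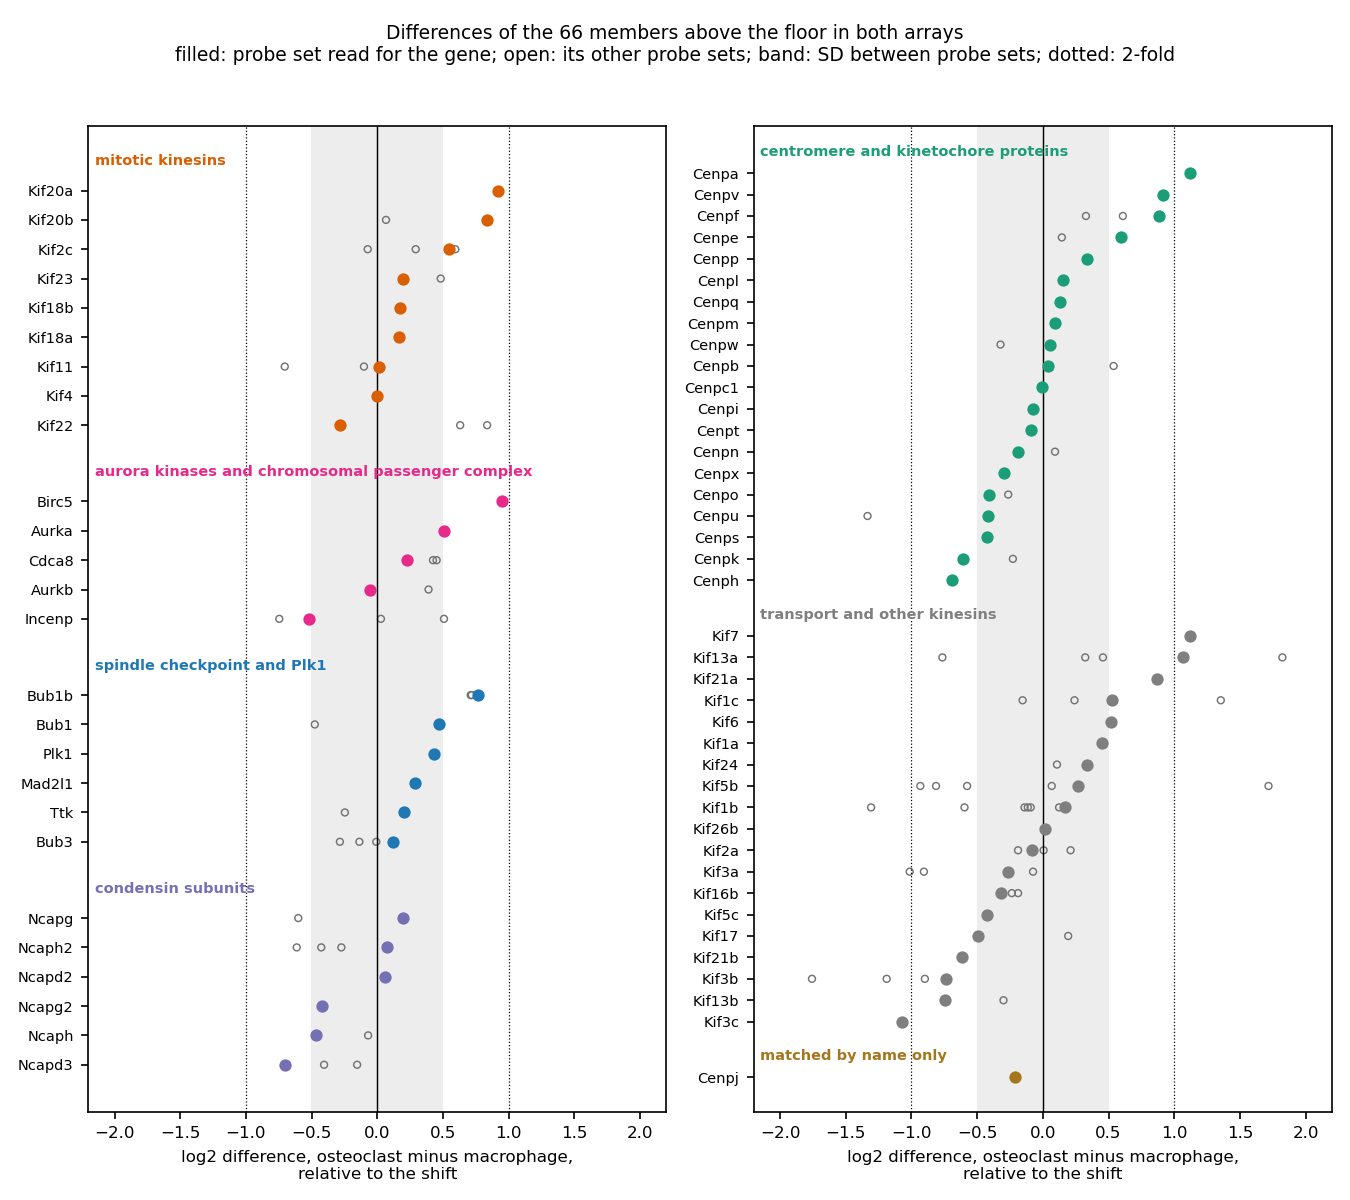
Log2 difference, osteoclast minus macrophage and relative to the shift (x axis), for the 66 members above the floor in both arrays, listed by role (y axis). Filled points are the probe set read for each gene, open points its other probe sets, the grey band is the SD between probe sets (0.49) and dotted lines mark 2-fold; all 6 checkpoint genes lie right of 0 by the probe set read.

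The 20 centromere and kinetochore genes, all measured in both arrays, split evenly, with 10 above the shift and 10 below and a median of 0.01. Above it by more than 1 SD between probe sets were 4 of the 20 genes, Cenpa, Cenpv, Cenpf and Cenpe. This is close to the 19.2% of all genes that were as high. Cenpf, a large protein of the outer kinetochore, gave 185 in macrophages and 253 in osteoclasts (0.89), with other probe sets at 0.61 and 0.33. Cenpe, the kinesin that carries chromosomes to the metaphase plate, gave 197 and 221 (0.60), with a second probe set at 0.14. Cenpv, a protein of centromere organisation, gave 89.2 and 124 (0.91). Cenpb, which binds a motif of satellite DNA, gave 482 and 366 (0.04).

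The constitutive network is the inner layer that sits on Cenpa chromatin through the whole cycle. Of its 15 members 5 were above the shift (33.3%, against 48.8% of all genes) and 10 below, and the median of -0.09 lay well within the quartiles of all genes. Cenph gave 158 in macrophages and 72.3 in osteoclasts (-0.70), the lowest of the centromere genes. Cenpk, its partner in 1 subcomplex, gave 403 and 196 (-0.61), with a second probe set at -0.23. Cenpu gave 179 and 99.4 (-0.41), with a second probe set at -1.33, and Cenpo, of the same subcomplex, gave 124 and 69.1 (-0.41). Cenpp and Cenpq, also of that subcomplex, gave 90.6 and 84.8 (0.34) and 266 and 215 (0.13). Subunits known to work together thus lay on both sides of the shift. By the probe set read, Cenpu, Cenpo, Cenpp and Cenpq were each within 1 SD between probe sets of it.

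The histone-fold subunits were likewise mixed, each within 1 SD of the shift by the probe set read. Cenps and Cenpx, which pair with each other, gave 116 and 64.1 (-0.43) and 620 and 374 (-0.30), while Cenpt and Cenpw, the second pair, gave 167 and 117 (-0.09) and 175 and 134 (0.05, second probe set -0.32). Cenpn and Cenpl, which bind Cenpa nucleosomes, gave 258 and 167 (-0.19, second probe set 0.09) and 126 and 104 (0.15). Cenpm gave 107 and 84.6 (0.09), the X-linked Cenpi 193 and 136 (-0.08), and Cenpc1, the link to the outer kinetochore, 294 and 216 (-0.01). Cenph and Cenpk were the only network subunits beyond 1 SD between probe sets, both below the shift, where 20.5% of all genes were as low. Cenpj gave 116 and 73.9 (-0.21).

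Condensin, a ring complex of an ATPase pair and further subunits, exists in 2 forms. Of condensin I, which reaches chromosomes after the nuclear envelope breaks down, Ncapg gave 233 in macrophages and 198 in osteoclasts (0.19, second probe set -0.60), Ncapd2 380 and 293 (0.06), and Ncaph 834 and 447 (-0.47, second probe set -0.07). Of condensin II, which is nuclear throughout the cycle, Ncaph2 gave 511 and 399 (0.08, other probe sets -0.61 to -0.27), Ncapg2 789 and 436 (-0.42), and Ncapd3 431 and 196 (-0.71, other probe sets -0.41 and -0.15). The medians were 0.06 for condensin I and -0.42 for condensin II, but they depend on the probe set. With the mean of all measured probe sets condensin I was at -0.20, and without probe sets that can match several genes condensin II was at -0.15. Ncapd3 was the only condensin subunit beyond 1 SD, and 3 of 6 subunits lay above the shift by the probe set read. With the mean of all measured probe sets 1 lay above and 5 below, with a median of -0.29. The ATPases shared by both forms gave 1218 and 830 for Smc2 (-0.12) and 1601 and 1756 for Smc4 (0.57). Their probe sets ran from -1.62 to 0.61 for Smc2 and from -0.0011 to 0.57 for Smc4.

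Among the member groups, kinesins of transport and other tasks had the widest range, from -1.07 to 1.12, with 10 above the shift and 9 below and a median of 0.01 over the 19 measured in both arrays (-0.42 as deposited). The motors of the kinesin-2 family, which carry cargo along cilia and in vesicle traffic, had 0 of 4 above the shift, against 48.8% of all genes, with a median of -0.61. Of them Kif3b and Kif3c were beyond 1 SD between probe sets, and Kif3a and Kif17 lay within it. Beside Kif3c, Kif3b gave 234 in macrophages and 104 in osteoclasts (-0.74), while the 3 further probe sets of the gene were lower still, down to -1.76. Kif3a, the partner of both, gave 198 and 122 (-0.27), with probe sets down to -1.01, and Kif17, which works as a homodimer, gave 43.3 and 22.8 (-0.49), the latter under the receptor level of 25.7. Kifap3, the non-motor subunit of the Kif3 complex, gave 307 and 162 (-0.49, second probe set -0.16). Of 11 measured probe sets of the 4 motors, 10 lay below the shift, the exception being 1 dim probe set of Kif17 at 0.19.

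The motors of the kinesin-3 family, which move endosomes and vesicles, lay on both sides by the probe set read. There were 4 above (66.7%, against 48.8% of all genes) and 2 below, with a median of 0.31. Kif1c, known from Golgi traffic and podosomes, gave 615 in macrophages and 657 in osteoclasts (0.53), with probe sets from -0.15 to 1.35. Kif1b, a carrier of mitochondria, gave 265 and 220 (0.17), the highest of 7 probe sets that ran down to -1.31. Kif16b, an early endosome motor, gave 394 and 234 (-0.32), and Kif13b 216 and 95.3 (-0.75). Kif13a and Kif13b, close relatives, thus lay on opposite sides by the probe set read, although 1 of the 5 probe sets of Kif13a lay at -0.76. Kif1a, known from neurons, was near the floor, with 18.7 and 18.9 (0.45).

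Kif5b, the widely expressed heavy chain of kinesin-1, gave 1465 in macrophages and 1303 in osteoclasts (0.26). Its 6 probe sets ran from -0.93 to 1.72, 3 above the shift and 3 below, so no direction held across them. The heavy chain Kif5c was dim, with 47.0 and 26.0 (-0.43), and the neuronal Kif5a was below the floor in both arrays. Kif21a and Kif21b, motors that slow microtubule growth, gave 23.3 and 31.4 (0.87) and 182 and 87.9 (-0.61). The other 2 probe sets of Kif21a were measured in macrophages only, with bounds of -0.52 and -0.17. Kif2a, a microtubule depolymerase, gave 399 and 279 (-0.08), Kif24, a depolymerase of centrioles, 59.5 and 55.6 (0.33), and Kif26b 90.6 and 67.8 (0.01). Kif6 was dim (19.8 and 21.0, 0.52), and Kif9 (26.4 and 9.36) and Kif12 (18.4 and 5.16) were measured in macrophages only.

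**Figure D3:**
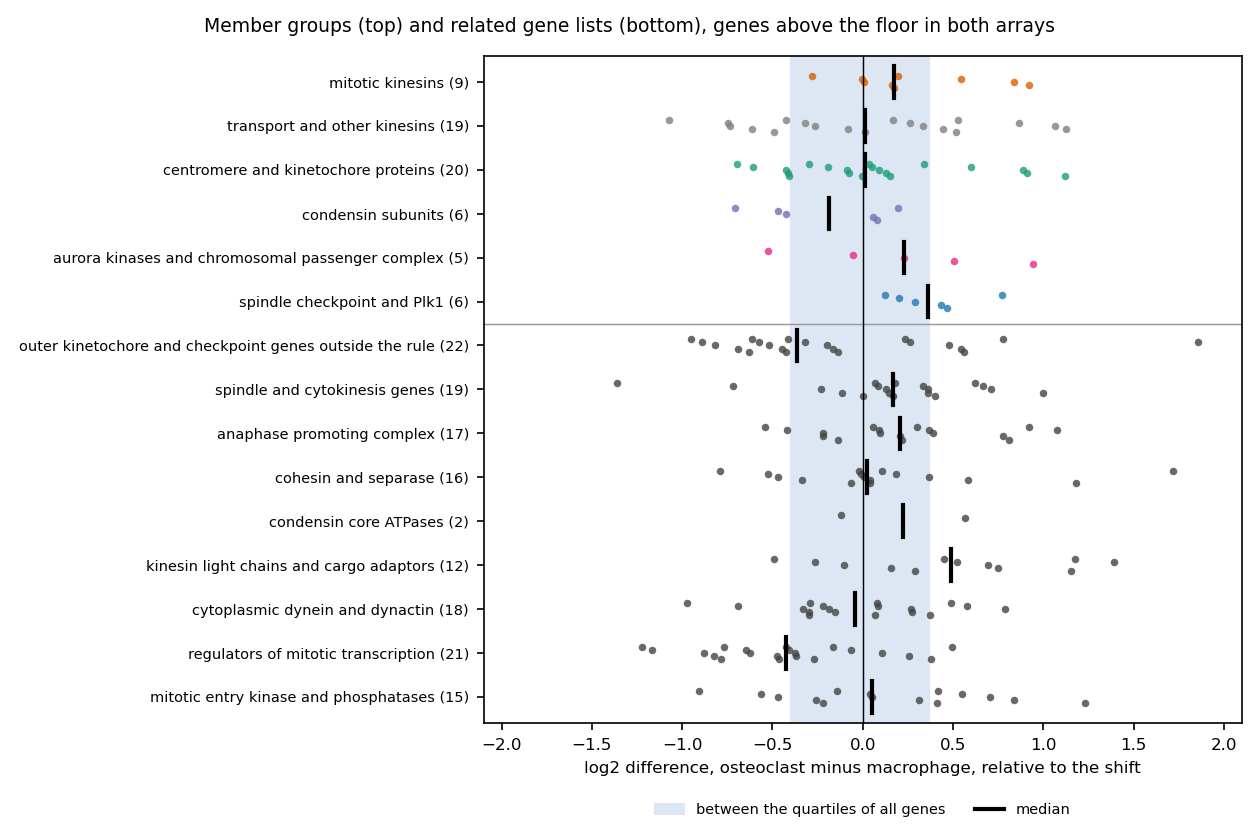
Log2 difference relative to the shift (x axis) of each gene above the floor in both arrays, by member group (upper 6 rows) and related gene list (lower 9 rows), with the number of genes in brackets, the median as a bar and the range between the quartiles of all genes (-0.40 to 0.37) shaded. The checkpoint group has no gene below 0 by the probe set read. The medians of the outer kinetochore and transcription regulator lists lie furthest left of 0, and those of condensin subunits (-0.18) and dynein and dynactin (-0.04) also lie left of it.

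Genes that work with the members, from lists of textbook partners, are set here and below against the 48.8% of all genes above the shift. Of 22 outer kinetochore and checkpoint genes outside the name rule 7 lay above the shift and 15 below, with a median of -0.37, against the -0.02 of all genes. Mad1l1, which recruits Mad2l1 to the kinetochore, was the only one at least 2-fold apart, with 68.8 in macrophages and 184 in osteoclasts (1.85). The Ndc80 complex, which holds the microtubule, had 3 of 4 subunits below the shift: Spc25 gave 689 and 316 (-0.69), Ndc80 196 and 106 (-0.45), Nuf2 470 and 304 (-0.20) and Spc24 228 and 202 (0.26). Of 19 spindle and cytokinesis genes 14 lay above the shift (median 0.17), 0 were 2-fold higher and Cit, a kinase of the midbody, was 2-fold lower (432 and 124, -1.36), although its probe sets ran from -1.36 to 0.80.

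All 17 genes of the anaphase promoting complex and its regulators were measured, 12 above the shift and 5 below, with a median of 0.21. Ube2s, the enzyme that extends ubiquitin chains for the complex, was 2-fold higher, with 1235 in macrophages and 1924 in osteoclasts (1.07). Of 22 regulators of mitotic transcription, 21 were measured in both arrays, 4 above the shift and 17 below (median -0.43). Only 2 of the list were at least 2-fold apart by the probe set read. Nfya, a subunit of the CCAAT-binding NF-Y, gave 956 and 303 (-1.22), with a second probe set at -0.40. E2f7, a repressor of E2F targets, gave 233 and 76.8 (-1.17). Kinesin light chains and cargo adaptors had 9 of 12 genes above the shift and a median of 0.49, with 4 of 13 at least 2-fold higher, against 7.11% of all genes. Of these 4, Kidins220 alone was above the receptor level of 28.2 in macrophages, so the size of the others is uncertain. Kidins220, a cargo adaptor, gave 922 and 1793 (1.39, probe sets from -0.48 to 1.52), Mapk8ip1, a scaffold bound by kinesin light chains, 19.1 and 32.0 (1.17), and Kifc2, a motor of the C-terminal class, 9.20 and 49.3, at least 1.96 on the log2 scale.

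Members with and without the CHR element were set side by side. Of all genes 48.8% lay above the shift, and this share was not split by the element. Whether the element goes with the difference beyond the members was therefore not tested. Of 28 members with the element and a signal above the floor in both arrays, 23 lay above the shift and 5 below, with a median of 0.18. Of 32 members without it, 14 lay above and 18 below, with a median of -0.08. With the mean of all measured probe sets the counts were 18 and 10 with the element (0.08) and 13 and 19 without it (-0.08). Without the transport kinesins and Cenpj, the counts were 20 and 5 with the element (0.17) and 8 and 10 without it (-0.04). The ranges overlapped almost fully: with the element they ran from -0.71 (Ncapd3) to 1.12 (Cenpa), and without it from -1.07 (Kif3c) to 1.12 (Kif7). For the CCAAT box the medians were 0.12 with it and 0.06 without. Members of both kinds lay on both sides of the shift.

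**Figure D4:**
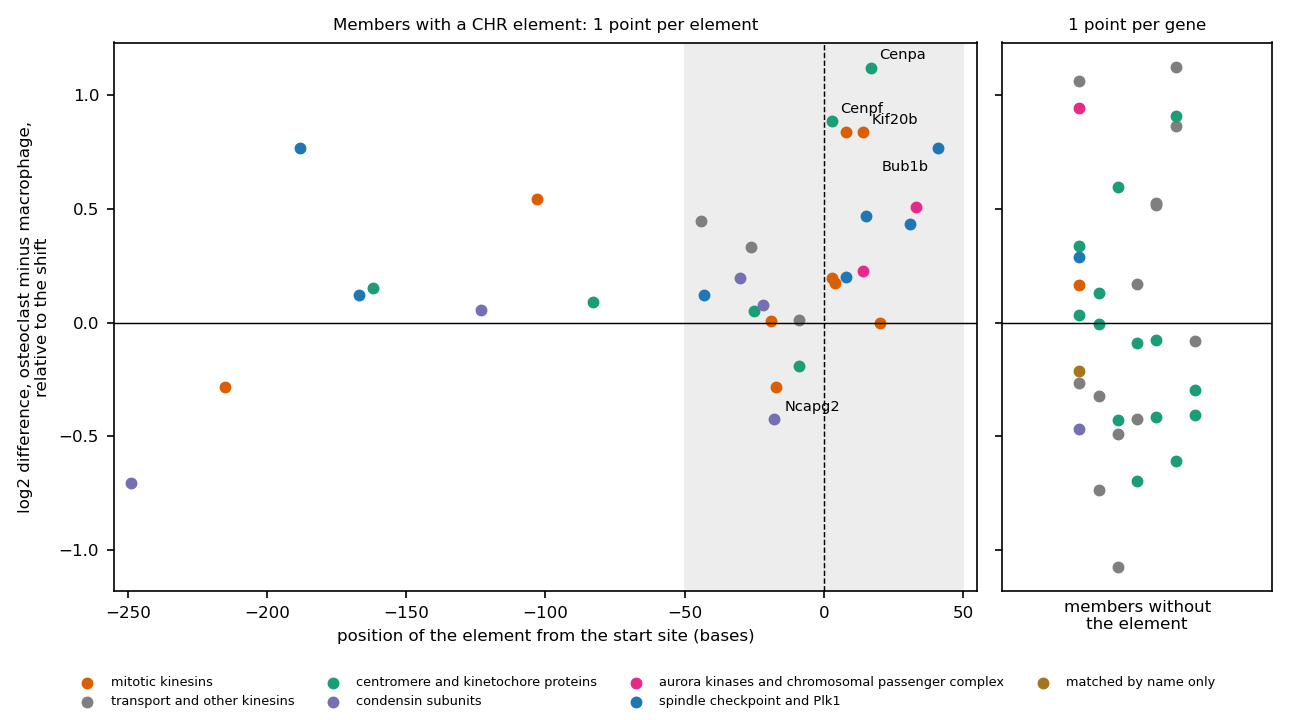
Left, position of each CHR element from the transcription start in bases (x axis) and the member's log2 difference relative to the shift (y axis), with the 50 bases on either side of the start shaded; right, members with a promoter entry and no element. Of members with the element 23 lie above 0 and 5 below, and of those without it 14 and 18. Of all genes, not split by the element, 48.8% lie above 0.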

How the data were processed

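The authors deposited 1 linear intensity per probe set and array, for 45101 probe sets. The summarization, background correction, scaling and presence calls were not given in the sources used here. The 64 control probe sets were left out, and the 34945 with a single gene symbol per the platform annotation were used (932 had several, 9160 none). Members had 180 such probe sets, and 1 with several symbols, Kif27 among them, was left out. Shares of all genes are over the 13647 above the floor in at least 1 array, or the 11469 above it in both. With 1 array per group there was no test, and genes were counted at 2-fold. Members and gene lists were chosen with earlier results of these data known. Every member is named, and of each related list up to 3 genes per direction with the largest differences of at least 2-fold, or else the 2 brightest. Ndc80, Nuf2, Spc24, Spc25, Smc2, Smc4, Kifap3, Pds5b and Cdk1 were added after their values were seen. Alternatives were the deposited scale, quantile normalization, other floors, other probe set choices and a 1.5-fold threshold. The planned search of motor proteins for their nucleotide-binding loop was not run, as no protein sequences were used here. Counting was tested on simulated data. Python 3.11.15, numpy 2.4.6, pandas 2.3.3 and matplotlib 3.10.9 were used.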

Additional observations from a re-analysis of the deposited data

How the results depend on the processing

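As deposited, with the shift kept, 0 members were at least 2-fold higher and 8 lower (Aurkc, Cenph, Cenpk, Kif13b, Kif21b, Kif3b, Kif3c and Ncapd3), and the medians turned negative for mitotic kinesins (-0.26), centromere genes (-0.42), the aurora and passenger group (-0.35), the checkpoint group (-0.073) and the transport kinesins (-0.42), as the 0.43 taken off every value requires. At a 1.5-fold threshold 11 members were higher and 8 lower. With no floor 6 were lower, the 5 added being dim genes (Aurkc, Kif9, Kif12, Kif14 and Kif15). With the mean of all measured probe sets 2 were lower (Kif3b joined Kif3c), 2 were higher (Cenpa and Kif7), the centromere median was -0.029 and that of the checkpoint group 0.17. Averaging also brought Kif22 to 0.39 and Kif21a to 0.06, and leaving out probe sets that can match several genes gave 0.63 for Kif22 and -0.15 for Ncapd3. Under quantile normalization and a floor at the receptor level Cenpa and Kif13a were higher and Kif3c lower. Cenpa was 2-fold higher in every setting run except the deposited scale, and Kif3c was 2-fold lower in every setting run. No paired analysis was possible because each group has 1 array and the labels carry no replicate numbers, and leaving out a replicate could not be done for the same reason. Dim members such as Kif7, Kif6 and Kif1a lie at or under the receptor level in 1 or both arrays, which limits what their differences show.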

Other observations

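Cohesin, the ring that holds sister chromatids together, and separase, which opens it at anaphase, had 16 measured genes, 9 above the shift and 7 below (median 0.02). Espl1, the separase itself, gave 115 in macrophages and 279 in osteoclasts (1.72), and Pds5a, a cohesin regulator, gave 194 and 326 (1.18), with a second probe set at 1.99. Its relative Pds5b gave 301 and 129 (-0.79), with a second probe set at -0.31.

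Cytoplasmic dynein and dynactin, which move cargo the opposite way along microtubules from most kinesins, had 18 genes measured in both arrays, 9 above the shift and 9 below, and 0 of 19 measured were 2-fold apart in either direction. The brightest were the light chain Dynll1, with 4996 and 5184 (0.49), and Dynlt3, with 2105 and 1635 (0.07). Of 15 genes of mitotic entry and exit 9 lay above the shift and 6 below (median 0.05). Ccnb2, a mitotic cyclin, gave 417 and 726 (1.23), the only gene of that list at least 2-fold apart, while its kinase Cdk1 gave 1436 and 1102 (0.05).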
